A study of Mus musculus with 6 samples.

Results

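The genes described here are the protein-folding genes of the heat shock system: the heat shock protein (HSP) genes of the HSP70, HSP110, HSP90, HSP60 and small HSP families, the J-domain genes Dnaja, Dnajb and Dnajc, the 8 subunits of the cytosolic chaperonin TRiC (Tcp1 and Cct2 to Cct8, with Cct6a) and the transcription factor gene Hsf1. They were taken by symbol, with Hsp90aa1 and Hsp90ab1 for HSP90 and without Hspa5, Dnajb9 and Hspbap1. Of 20756 genes listed, 67 matched: 11 HSP70 and HSP110 genes, 2 HSP90 genes, 2 genes of the mitochondrial chaperonin, 4 small HSP genes, 39 J-domain genes, 8 TRiC genes and Hsf1. A further 11 matching symbols of the annotation (Dnajb3, Dnajb7, Dnajb8, Dnajc5b, Dnajc5g, Hspa12b, Hspa14, Hspb2, Hspb3, Hspb7 and Hspb9) were not analysed here.

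The libraries came from mouse tumor organoids, cultures of tumor cells grown in a basement-membrane gel, derived from an intestinal tumor that had spread to the liver, with C57BL/6 as the strain and small intestine as the tissue. The sgScr group (3 libraries, genotype spelled sgScbr, described as WT) carried the control guide, and the sgPrkci group (3 libraries, described as PKClambdaKO) carried a guide against Prkci, the gene of an atypical protein kinase C. Both grew untreated in the same medium with EGF for 72 h after plating. The labels do not say which mutations drive the tumor, nor whether each group was a clone or a mixed population.

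Chaperones bind unfolded proteins and let them fold. HSP70 proteins do so in cycles of ATP use that J-domain proteins start and HSP110 proteins reset, and HSP90 acts on nearly folded clients such as kinases and receptors. TRiC is a ring of 8 different subunits that encloses actin, tubulin and other proteins, and HSP60 with HSP10 does similar work in mitochondria. HSF1 binds heat shock elements, repeats of the bases GAA and TTC, in front of many of these genes when unfolded proteins accumulate, and rapidly growing tumor cells are known to need the system.

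Each library gave between 2141125 and 3048170 reads as 3' tags, reads from the ends of transcripts, deposited as CPM, counts scaled to the library total. The value of 1 read was 0.328 to 0.467 CPM, and 3 reads, the limit that a count of 0 allows, came to 0.984 to 1.40 CPM per library, for counting error alone. All 8 intestinal epithelial markers were present (summed level 3331 to 3885 CPM in sgScr and 3642 to 4044 CPM in sgPrkci). Marker sums of other cell types were low: 5.25 to 7.38 against 7.94 to 12.4 CPM for the 2 immune markers listed, 0.328 to 2.35 against 0.710 to 2.34 CPM for fibroblasts and at most 0.335 CPM for endothelium (Pecam1 and Cdh5 at 0). For the 3 hepatocyte markers listed the sum was 1.97 to 16.1 against 0.355 to 1.13 CPM. Of these, Apoa1 reached 16.1 CPM, Alb at most 0.3 CPM, and Ttr was at 0. The part of such cells in the results was not tested. Prkci itself had 46.6, 54.5 and 63.8 CPM in sgScr libraries 1 to 3 and 53.9, 56.5 and 46.9 CPM in sgPrkci libraries 1 to 3, a log2 fold change of -0.059, adjusted p = 0.77. The groups overlapped, and since a 3' tag does not read an edit elsewhere in the gene, this level does not check the labels.

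The summed level of the chaperone genes was lower in the sgPrkci organoids, though not that of every class. Together they took 1.11, 1.16 and 1.11% of the reads of sgScr libraries 1 to 3 and 0.927, 0.914 and 0.907% of those of sgPrkci libraries 1 to 3, so that every sgPrkci library lay below every sgScr library. This sum leans on genes with many tags. The 2 HSP90 genes had 4695, 4573 and 4255 CPM in sgScr libraries 1 to 3 and 3599, 3614 and 3622 CPM in sgPrkci libraries 1 to 3. The 39 J-domain genes together had 2384, 2572 and 2537 CPM against 2405, 2374 and 2271 CPM, with overlapping groups. In bulk libraries, fewer cells of a type and less RNA per cell cannot be told apart. Of the 67 genes, 62 reached 1 CPM in at least 3 of the 6 libraries and were tested with limma on log2(CPM + 1), and the log2 fold changes below are sgPrkci minus sgScr on that scale, which understates changes of low genes. The 5 others (Hspa12a, Hspa1l, Hspb8, Dnajb13 and Dnajc6) stayed at or under 0.754 CPM. At an adjusted p under 0.05, 5 of the 62 rose (8.06%), against 11.4% of all 12195 tested genes, 22 fell (35.5%), against 20.5% of all genes, and 35 did not pass. The median log2 fold change of the 62 was -0.22, against -0.11 over all tested genes. Below 0 were 49 of the 62, and 7321 of all 12195 tested genes.

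The fit was repeated under 17 alternatives, which changed the scaling, the filter, the pseudocount or the tool, or left out each library in turn. The median of the chaperone genes stayed below 0 in each, from -0.254 to -0.119. That of all tested genes did so as well, from -0.1165 to -0.0108. The number of calls moved. With TMM factors, which assume that most genes do not change, 6 of the 62 rose, against 15.7% of all genes, and 16 fell (25.8%), against 14.9%. With DESeq2 5 rose, against 11.7% of all genes, and 11 fell (17.7%), against 9.17%. With plain moderation, in which the variances follow no trend and get no robust weights, 3 rose, against 8.15% of all genes, and 13 fell (21.0%), against 15.2%. With TMM, the share of higher genes among all calls went from 35.7 to 51.4%, and the median of the chaperone genes to -0.12, against -0.015 over all genes. Counted without a test, all 3 sgPrkci libraries lay below all 3 sgScr libraries for 31 of the 62, against 27.1% of all genes, and above them for 6, against 15.9%.

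**Figure D1:**
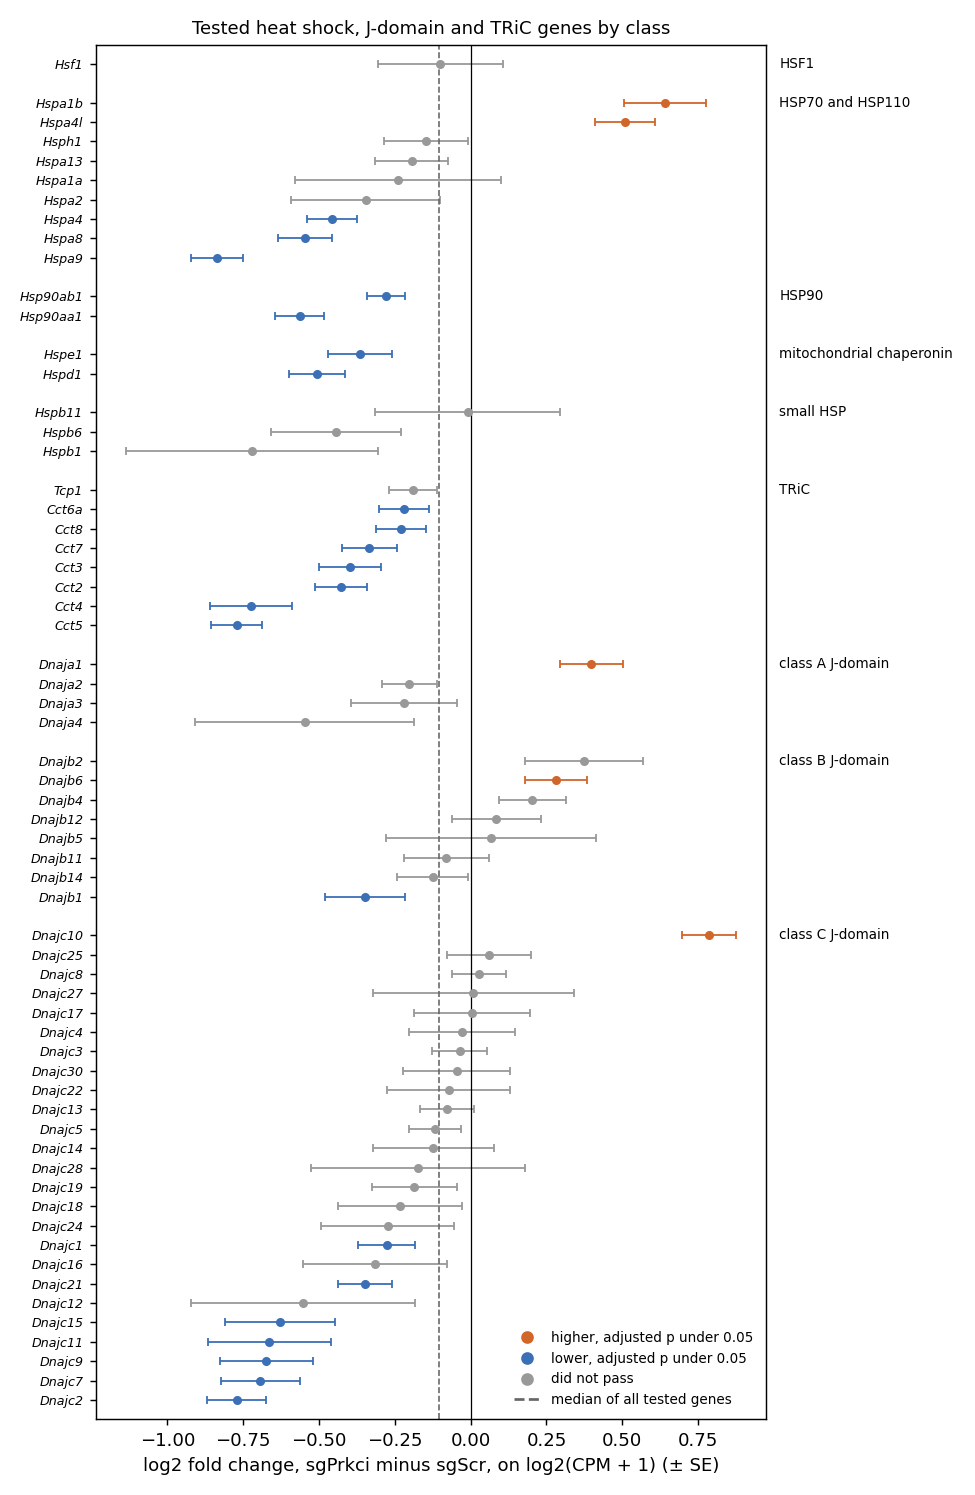
Log2 fold change, sgPrkci minus sgScr, with its standard error (horizontal axis, log2(CPM + 1) scale) for the 62 tested genes, grouped by class. Blue points fell, orange points rose and grey points did not pass, and the dashed line is the median of all tested genes, -0.11. The 8 TRiC subunits, both HSP90 genes and both chaperonin genes all sit to the left of 0, as they also did under each alternative scaling tried, while the HSP70 and J-domain classes hold genes on both sides.

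The 5 genes that rose were Hspa1b, Hspa4l, Dnaja1, Dnajb6 and Dnajc10. Their promoters and those of the other chaperone genes were searched for heat shock elements. The search read 300 bases per promoter (250 before to 50 after the start) from the RefSeq promoter table, build GRCm38.p6, for the letters GAANNTTC and TTCNNGAA, either of which makes a two-unit heat shock element and reads the same on both strands. Promoters were given for 53 of the 67 genes, the others being Cct4, Dnajc2, Dnajc5, Dnajc11, Dnajc12, Dnajc18, Dnajc22, Dnajc30, Hsf1, Hsp90aa1, Hsp90ab1, Hspa8, Hspa9 and Hspa13. The two-unit element was in the promoters of 17 of the 53, and 19 of their 72 promoter entries, against 15.1% of 32851 promoter entries of all genes. It was present for 4 of the 5 genes that rose, 5 of 15 that fell and 8 of 33 that did not pass or were not tested. Hspd1 and Hspe1, both among the 5 that fell, share the stretch printed below. Of the genes that rose, Dnajb6 lost its call under 6 alternatives. The tags of Dnaja1 cannot be told apart from those of the overlapping gene Smu1 or of 3 pseudogenes. All genes that rose had a promoter given. Cct4, Dnajc2, Dnajc11, Hsp90aa1, Hsp90ab1, Hspa8 and Hspa9 fell but had none, so the counts for genes that fell are incomplete. A gene was counted if any of its entries matched, so these counts do not compare with the 15.1% of entries. No share of genes was counted over all genes, so whether the 4 of 5 stand out was not tested. The gene without it among those that rose was Hspa4l. The three-unit element, in which a further unit follows the two-unit element 2 bases on, was in 0.603% of all promoter entries and in those of Dnajb6, which rose, Hspd1 and Hspe1, which fell, and Hsph1, which did not pass. A match describes letters and is not a bound site. The stretches below show the element in the 4 promoters of genes that rose, in the promoter that Hspd1 and Hspe1 share, and in that of Cct5, the TRiC gene with the lowest log2 fold change. They are printed 5′ to 3′ on the strand named, from the RefSeq table, with the element in capitals.
Hspa1b (chr17:34959309-34959368, minus strand): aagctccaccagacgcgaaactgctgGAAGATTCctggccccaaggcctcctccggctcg
Dnaja1 (chr4:40722318-40722377, plus strand): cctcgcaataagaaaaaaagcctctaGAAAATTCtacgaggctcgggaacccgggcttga
Dnajb6 (chr5:29735826-29735890, plus strand): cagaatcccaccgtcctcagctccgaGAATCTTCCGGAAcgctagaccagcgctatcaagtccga
Dnajc10 (chr2:80315258-80315317, plus strand): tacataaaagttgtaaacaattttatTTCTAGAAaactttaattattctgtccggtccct
Hspe1 and Hspd1 (chr1:55088033-55088102, plus strand): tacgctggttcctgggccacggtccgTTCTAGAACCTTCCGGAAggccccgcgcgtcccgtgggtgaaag
Cct5 (chr15:31601847-31601906, minus strand): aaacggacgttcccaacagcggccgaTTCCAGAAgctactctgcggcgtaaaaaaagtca
Counted from the RefSeq start, the element began at position -104 for Hspa1b, -124 for Dnaja1, -182 for Dnajc10 and -34 for Cct5. The Hspe1 and Hspd1 entries overlap by 285 bases, since both genes start there and run in opposite directions, and their run of 4 units holds 3 overlapping two-unit matches.

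The gene of HSF1, the factor that binds these elements, did not pass. Hsf1 had 10.1, 13.5 and 13.1 CPM in sgScr libraries 1 to 3 and 10.9, 10.7 and 12.1 CPM in sgPrkci libraries 1 to 3, with overlapping groups. Its log2 fold change was -0.100 ± 0.21 (SE, adjusted p = 0.76), and its sign turned to 0.084 with quantile normalization and to 0.27 once the median of its chromosome was removed. Hsf1 lies on chromosome 15, whose genes had a median log2 fold change of -0.365.

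The HSP70 and HSP110 genes moved in both directions, with 2 of 9 tested higher (22.2%, against 11.4% of all genes), 3 lower (33.3%, against 20.5%) and 4 not passing. Of the stress-inducible HSP70 genes Hspa1b rose and Hspa1a did not pass, while the constitutive and mitochondrial HSP70 genes fell. Hspa1b (chr17:34956436-34959238, minus strand), a stress-inducible HSP70, had 39.9, 49.9 and 55.99 CPM in sgScr libraries 1 to 3 and 87.5, 77.996 and 63.2 CPM in sgPrkci libraries 1 to 3. Every sgPrkci library was above every sgScr library, and the log2 fold change was 0.64 ± 0.13 (SE, adjusted p = 0.00046). Hspa8, the constitutive cytosolic HSP70 (HSC70) that also uncoats clathrin vesicles, had 189.7, 196 and 190.3 CPM in sgScr libraries 1 to 3 and 129, 128 and 135 CPM in sgPrkci libraries 1 to 3. The groups were far apart beside their spread, and Hspa8 fell by 31.7% in mean level, a log2 fold change of -0.55 ± 0.09 (SE, adjusted p = 1.8e-05).

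Of the 22 chaperone genes that fell, Hspa9 had the lowest value on the log2(CPM + 1) scale, although Dnajc2 was lower with chromosome medians removed (-0.78) and Cct5 without sgScr library 3 (-0.80). Hspa9 encodes mortalin, the mitochondrial HSP70 that pulls imported proteins into the matrix, and had 614, 759 and 779 CPM in sgScr libraries 1 to 3 and 422, 373 and 405 CPM in sgPrkci libraries 1 to 3. The highest sgPrkci library stayed under the lowest sgScr library, the mean fell by 44.3%, and the log2 fold change was -0.84 ± 0.08 (SE, adjusted p = 6.4e-09). The 3 genes Hspa1b, Hspa8 and Hspa9 kept call and direction under all 17 alternatives.

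The HSP110 genes, whose products release ADP from HSP70, did not move together. Hspa4l had 95.9, 104 and 89.3 CPM in sgScr libraries 1 to 3 and 144, 132 and 136 CPM in sgPrkci libraries 1 to 3, with every sgPrkci library above every sgScr library. It rose by 0.51 ± 0.10 (SE, adjusted p = 0.00017). Hspa4, its close relative, had 316, 322 and 299 CPM in sgScr libraries 1 to 3 and 228, 238 and 216 CPM in sgPrkci libraries 1 to 3, the opposite order with no overlap. It fell, with a log2 fold change of -0.46 ± 0.08 (SE, adjusted p = 7.6e-05). Hspa4 lies on chromosome 11, whose median was -0.397, and with chromosome medians removed its value was -0.059 and no longer passed, whereas Hspa4l on chromosome 3 kept its call under all 17 alternatives. Hsph1, the heat-inducible HSP110, had 41.2, 42.6 and 38.6 CPM in sgScr libraries 1 to 3 and 43.8, 33.6 and 33.7 CPM in sgPrkci libraries 1 to 3, with overlapping groups (log2 fold change -0.15, adjusted p = 0.46). Hspa13 (-0.19), Hspa1a (-0.24) and Hspa2 (-0.35) did not pass either. The coding parts of Hspa1a and Hspa1b are nearly identical, but a search of the last 300 bases of each for a copy (at least 75 bases at 98% identity) found none. For Hspa8 the same search found 4 pseudogenes that could share its tags.

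Both cytosolic HSP90 genes fell. Hsp90ab1, the constitutive gene, with the most tags of the 67, had 4112, 3851 and 3576 CPM in sgScr libraries 1 to 3 and 3129, 3176 and 3192 CPM in sgPrkci libraries 1 to 3. The sgPrkci libraries lay close together below all sgScr libraries, with a log2 fold change of -0.28 ± 0.06 (SE, adjusted p = 0.00097). Hsp90aa1, the inducible gene, had 583, 722 and 679 CPM in sgScr libraries 1 to 3 and 469.6, 438 and 430.1 CPM in sgPrkci libraries 1 to 3, again without overlap. It fell by 32.6% in mean level, a log2 fold change of -0.56 ± 0.08 (SE, adjusted p = 3.0e-06), and kept its call under all 17 alternatives. Hsp90ab1 did not pass with edgeR (-0.18), DESeq2 (-0.18) or plain moderation. The tails of Hsp90aa1 matched 2 pseudogenes.

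The HSP60 and HSP10 genes both fell, on a chromosome whose median was above 0. Hspd1 encodes HSP60, the barrel of the mitochondrial chaperonin, and had 234, 287 and 245 CPM in sgScr libraries 1 to 3 and 172, 193 and 173 CPM in sgPrkci libraries 1 to 3. No sgPrkci library reached the sgScr range, and the log2 fold change was -0.51 ± 0.09 (SE, adjusted p = 8.2e-05). Hspe1 encodes HSP10, the lid of that barrel, and had 95.2, 108 and 113 CPM in sgScr libraries 1 to 3 and 88.6, 75.2 and 80.6 CPM in sgPrkci libraries 1 to 3. The groups were separate by a smaller distance, with a log2 fold change of -0.37 ± 0.11 (SE, adjusted p = 0.0087). Both lie on chromosome 1, head to head over the shared promoter printed above, and the median of that chromosome was 0.184. With chromosome medians removed the median of the pair was -0.62. The tail of each matched 1 other gene. The call of Hspd1 held under all 17 alternatives, and that of Hspe1 ended with TMM (-0.26), median-of-ratios scaling (-0.26), edgeR (-0.26), DESeq2 (-0.26), plain moderation and without sgPrkci library 2 (-0.31).

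**Figure D2:**
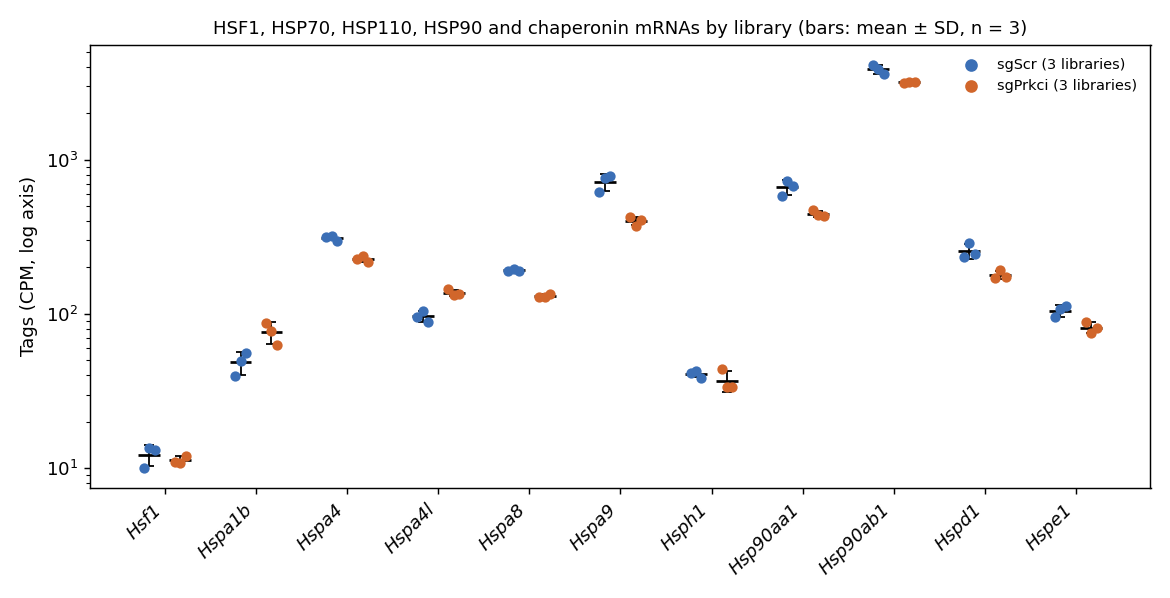
Level of Hsf1 and of the main HSP70, HSP110, HSP90 and chaperonin genes (vertical axis, CPM on a log axis) in each of the 3 sgScr libraries (blue) and 3 sgPrkci libraries (orange), with black bars for the mean ± SD. Hspa1b and Hspa4l have every orange point above every blue point, Hsf1 and Hsph1 overlap, and the other genes have every orange point below.

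None of the 3 tested small HSP genes passed, and 2 of them had few tags, with 24 reads in the sgScr and 7 in the sgPrkci libraries for Hspb1 and 40 and 33 for Hspb11. Hspb6 had 10.4, 13.1 and 12.4 CPM against 9.05, 7.94 and 8.52 CPM in sgScr and sgPrkci libraries 1 to 3, without overlap, and a log2 fold change of -0.44, adjusted p = 0.12. It passed with plain moderation. Hspb1, which encodes HSP27 (known as HSP25 in the mouse) and is heat-inducible, had 0.335, 4.59 and 3.19 CPM against 0.754, 0.934 and 1.07 CPM, so that sgScr library 1 lay below every sgPrkci library and the 2 other sgScr libraries above them. The fit gave a log2 fold change of -0.72, adjusted p = 0.2, but without sgScr library 1 it was -1.34 and passed. Its tail matched 1 pseudogene. Hspb11 had 7.04, 3.61 and 2.83 CPM against 4.15, 3.27 and 5.33 CPM and a log2 fold change of -0.010, adjusted p = 0.98, with a sign that turned under 7 of the alternatives.

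All 8 TRiC subunit genes were lower in sgPrkci organoids, as were 7321 of all 12195 tested genes. Of the 8 subunits, 7 passed (87.5%), against 20.5% of all tested genes. For each of the 8, all 3 sgPrkci libraries lay below all 3 sgScr libraries, as for 27.1% of all genes, and all 8 values stayed below 0 under each of 17 alternatives. Their summed level was 2264, 2500 and 2419 CPM in sgScr libraries 1 to 3 and 1864, 1812 and 1849 CPM in sgPrkci libraries 1 to 3. The median log2 fold change was -0.37. Cct5 had 341, 364 and 335 CPM in sgScr libraries 1 to 3 and 203, 191 and 215 CPM in sgPrkci libraries 1 to 3, and its mean fell by 41.5%. The log2 fold change came to -0.77 ± 0.08 (SE, adjusted p = 2.2e-08), the lowest of the 8, and its call held under all 17 alternatives. With the median of chromosome 15 removed it was -0.41.

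Cct4 came next and had a lower value than Cct5 without sgScr library 1 (-0.84 against -0.78), sgScr library 2 or sgPrkci library 1 (-0.83 against -0.77). Cct4 had 114, 132 and 159.8 CPM in sgScr libraries 1 to 3 and 93.5, 63.99 and 87.7 CPM in sgPrkci libraries 1 to 3, without overlap, and a log2 fold change of -0.72 ± 0.13 (SE, adjusted p = 0.00029). It lies on chromosome 11, and with chromosome medians removed its value was -0.33 and did not pass. Cct2 had 414, 488 and 504 CPM in sgScr libraries 1 to 3 and 380.2, 326 and 337 CPM in sgPrkci libraries 1 to 3, without overlap. On the log2 scale the difference was -0.43 ± 0.09 (SE, adjusted p = 0.00027), and its call ended with plain moderation alone. Cct3 had 139.8, 136 and 154 CPM in sgScr libraries 1 to 3 and 93.9, 111 and 123 CPM in sgPrkci libraries 1 to 3, without overlap. The log2 fold change of Cct3 was -0.40 ± 0.10 (SE, adjusted p = 0.0035), and it did not pass with DESeq2 (-0.29), plain moderation or without sgPrkci library 1 (-0.30).

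The 4 remaining subunits had smaller differences. Cct7 had 282, 263 and 230.3 CPM in sgScr libraries 1 to 3 and 191, 222 and 201 CPM in sgPrkci libraries 1 to 3 and fell by a narrow margin between the groups. Its log2 fold change was -0.33 ± 0.09 (SE, adjusted p = 0.0053). Cct8 had 279, 317 and 324 CPM in sgScr libraries 1 to 3 and 262, 269 and 251 CPM in sgPrkci libraries 1 to 3, also with a narrow gap. The log2 fold change of Cct8 was -0.23 ± 0.08 (SE, adjusted p = 0.036). Cct6a had 380.5, 475 and 411 CPM in sgScr libraries 1 to 3 and 367, 360.1 and 356 CPM in sgPrkci libraries 1 to 3, and its sgPrkci libraries lay close together just under the lowest sgScr library. The fit gave a log2 fold change of -0.22 ± 0.08 (SE, adjusted p = 0.042). Tcp1, the founding subunit, had 313, 325 and 301 CPM in sgScr libraries 1 to 3 and 275, 270.4 and 278 CPM in sgPrkci libraries 1 to 3, and although the groups did not overlap, the log2 fold change of -0.19 ± 0.08 (SE, adjusted p = 0.07) did not pass.

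The size of the TRiC decrease depended on the scaling. Of the 8 subunits, 4 passed with TMM (50%, against 14.9% of all genes lower), with median-of-ratios scaling (against 14.8%) and with edgeR (against 14.7%). With quantile normalization 6 passed (75%, against 15.5%) and with DESeq2 3 (37.5%, against 9.17%). Plain moderation left 2 (25%, against 15.2%), and the removal of chromosome medians 5 (62.5%, against 13.3%). The call of Cct7 ended with TMM (-0.23), median-of-ratios scaling, edgeR (-0.24), DESeq2 (-0.24) and plain moderation. Those of Cct6a and Cct8 ended, among others, with TMM (-0.12 and -0.13) and with the removal of any library but sgScr library 1, where Cct6a ranged from -0.24 to -0.13 and Cct8 from -0.25 to -0.19. Without sgPrkci library 1, 4 subunits passed (50%, against 17.2% of all genes lower). The counted tags of Cct8 cannot be told apart from those of Usp16, whose 3' end on the opposite strand lies within 500 bases and which fell too (-0.39, adjusted p = 0.0024), since no source used here gives the strand setting of the counting. The last 500 bases of Tcp1, Hspb6 and Dnaja4 overlap exons of Acat3, Lin37 and Wdr61 on the opposite strand.

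The makeup of the TRiC mRNA pool shifted with the unequal decreases. Cct5 made up 15.1, 14.6 and 13.8% of the TRiC tags of sgScr libraries 1 to 3 and 10.9, 10.5 and 11.6% of those of sgPrkci libraries 1 to 3. Tcp1 made up 13.8, 12.99 and 12.4% against 14.7, 14.9 and 15.04%. The share of Cct5 was thus lower and that of Tcp1 higher in every sgPrkci library. Without overlap, the share of Cct4 was also lower and those of Cct6a and Cct8 higher, while the shares of Cct2, Cct3 and Cct7 overlapped between the groups. These shares were examined after the fold changes were known and carry no test. Cct5 and Cct4 lie on chromosomes 15 and 11, with medians of -0.365 and -0.397, and a share within a library does not remove such a shift. Less the chromosome median, Cct5 was at -0.41, Cct3 at -0.36, Cct7 at -0.34 and Cct4 at -0.33. Cct2 was then at -0.26, Cct6a at -0.23, Cct8 at -0.17 and Tcp1 at -0.12.

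**Figure D3:**
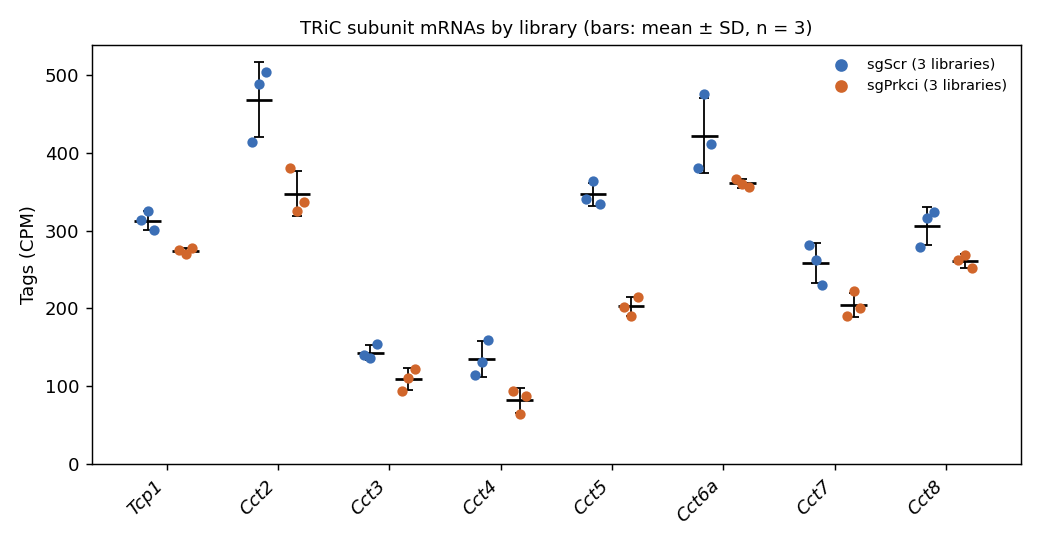
Level of the 8 TRiC subunit genes (vertical axis, CPM) in each of the 3 sgScr libraries (blue) and 3 sgPrkci libraries (orange), with black bars for the mean ± SD. For every subunit the orange points lie below the blue points, with the widest gap, 119.7 CPM between the nearest points, for Cct5 and the narrowest, 8.49 and 9.57 CPM, for Cct7 and Cct8.

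The J-domain genes, whose products bring clients to HSP70 and trigger its ATP use, gave 3 higher (8.11%) and 8 lower (21.6%) of 37 tested, and 26 did not pass. These shares were near the 11.4% and 20.5% of all tested genes, and the median of the 37, -0.12, was near the -0.11 of all genes. In class A, built like bacterial DnaJ, 1 of 4 rose (25%, against 11.4% of all genes) and none fell (against 20.5%). Dnaja1 had 84.1, 99.1 and 102 CPM in sgScr libraries 1 to 3 and 118, 137 and 121 CPM in sgPrkci libraries 1 to 3, with every sgPrkci library higher. The log2 fold change came to 0.40 ± 0.10 (SE, adjusted p = 0.0037), and it did not pass with plain moderation. Dnaja2, which does similar cytosolic work, had 222, 249.99 and 231 CPM in sgScr libraries 1 to 3 and 207, 220.4 and 185 CPM in sgPrkci libraries 1 to 3, in the other direction without overlap, but its log2 fold change of -0.20 ± 0.09 (SE, adjusted p = 0.085) did not pass, except without sgScr library 1 (-0.24). With the median of chromosome 8 removed, Dnaja2 came to 0.078. Dnaja3, a mitochondrial J-domain gene, had 21.5, 25.6 and 27.6 CPM in sgScr libraries 1 to 3 and 21.9, 16.8 and 25.6 CPM in sgPrkci libraries 1 to 3, with overlapping groups. Neither it (-0.22, adjusted p = 0.37) nor Dnaja4 (-0.55, adjusted p = 0.26) passed. The last 500 bases of Dnaja1 overlap an exon of Smu1 on the opposite strand, which rose as well (0.33, adjusted p = 0.012). The tail of Dnaja1 also matched 3 pseudogenes, so its tags cannot be told apart from those of Smu1 or of these copies.

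In class B, 1 of 8 tested genes rose and 1 fell (12.5% each, against 11.4 and 20.5% of all genes). Dnajb6, known to keep polyglutamine proteins from aggregating, had 98.9, 89.9 and 95.7 CPM in sgScr libraries 1 to 3 and 128, 111 and 108 CPM in sgPrkci libraries 1 to 3, with no overlap. On the log2 scale the difference was 0.28 ± 0.10 (SE, adjusted p = 0.034). Its tail matched 5 pseudogenes. Dnajb1, the main heat-inducible HSP40, had 45.9, 51.8 and 55.99 CPM in sgScr libraries 1 to 3 and 45.3, 38.3 and 36.6 CPM in sgPrkci libraries 1 to 3, with the groups close to each other. It fell, with a log2 fold change of -0.35 ± 0.13 (SE, adjusted p = 0.042). Neither call held under all 17 alternatives. That of Dnajb6 ended with no filter, with plain moderation, with chromosome medians removed (0.27) and without sgScr library 2 (0.24), sgScr library 3 (0.29) or sgPrkci library 1 (0.21). That of Dnajb1 ended under 12 of 17 alternatives, among them TMM (-0.25), chromosome medians removed (-0.070) and the removal of sgScr library 2 (-0.34) or 3 (-0.28) or of sgPrkci library 2 (-0.32) or 3 (-0.29).

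Dnajb4 and Dnajb14, named for their many tags, did not pass. Dnajb4 had 66.4, 63.3 and 67.3 CPM in sgScr libraries 1 to 3 and 72.8, 84.1 and 71.03 CPM in sgPrkci libraries 1 to 3, higher in every sgPrkci library, with a log2 fold change of 0.20, adjusted p = 0.17 that passed with TMM (0.31), median-of-ratios scaling (0.31) and edgeR (0.31). Dnajb14, an endoplasmic reticulum (ER) membrane gene, had 62.02, 67.9 and 72.3 CPM in sgScr libraries 1 to 3 and 61.1, 68.2 and 56.1 CPM in sgPrkci libraries 1 to 3, with overlapping groups and a log2 fold change of -0.13, adjusted p = 0.45. The other 4 class B genes ranged from -0.080 for Dnajb11 to 0.37 for Dnajb2.

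Class C, which holds the J-domain genes of varied build and place, gave 1 higher (4%, against 11.4% of all genes) and 7 lower (28%, against 20.5%) of 25 tested. Dnajc10 encodes ERdj5, a J-domain protein of the ER that reduces disulfide bonds, and had 124, 133 and 127 CPM in sgScr libraries 1 to 3 and 226, 223 and 215 CPM in sgPrkci libraries 1 to 3. The groups were separated by many times their spread. Its log2 fold change of 0.79 ± 0.09 (SE, adjusted p = 4.2e-08) was the largest increase among the 62, and it kept its call under all 17 alternatives. Dnajc2, whose product works at the ribosome on emerging chains, had 183, 238 and 207 CPM in sgScr libraries 1 to 3 and 126, 121 and 118 CPM in sgPrkci libraries 1 to 3, with the sgPrkci libraries close together. It fell by 41.9% in mean level, a log2 fold change of -0.77 ± 0.10 (SE, adjusted p = 3.4e-07), and also kept its call under all 17. The tail of Dnajc2 matched 1 pseudogene.

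Dnajc9 encodes a J-domain protein that escorts histones. It had 34.9, 33.8 and 38.3 CPM in sgScr libraries 1 to 3 and 19.6, 25.2 and 21.3 CPM in sgPrkci libraries 1 to 3, without overlap. Its log2 fold change was -0.67 ± 0.15 (SE, adjusted p = 0.0011), and it passed under all 17 alternatives. Dnajc7, whose product binds both HSP70 and HSP90, had 70.1, 88.9 and 88.9 CPM in sgScr libraries 1 to 3 and 58.5, 53.7 and 40.8 CPM in sgPrkci libraries 1 to 3, without overlap. It fell, with a log2 fold change of -0.69 ± 0.13 (SE, adjusted p = 0.00014), but lies on chromosome 11 and with chromosome medians removed stood at -0.30 and did not pass. Dnajc21, which acts in the maturation of the large ribosomal subunit, had 188, 207 and 191 CPM in sgScr libraries 1 to 3 and 162, 149.9 and 147 CPM in sgPrkci libraries 1 to 3. The groups were apart, and its log2 fold change was -0.35 ± 0.09 (SE, adjusted p = 0.0031). That decrease was close to the median of its chromosome 15, whose removal left 0.017, and its call ended also with DESeq2 (-0.25) and with plain moderation.

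The other 3 class C genes that fell lie outside the rule for naming and were added after their values were seen. Dnajc11, a mitochondrial gene tied to cristae, had 15.1, 19.03 and 18.1 CPM in sgScr libraries 1 to 3 and 9.81, 8.87 and 13.5 CPM in sgPrkci libraries 1 to 3. Dnajc15, of the inner mitochondrial membrane, had 24.5, 21.98 and 30.8 CPM in sgScr libraries 1 to 3 and 18.5, 13.1 and 17.4 CPM in sgPrkci libraries 1 to 3. Both were lower in every sgPrkci library, with log2 fold changes of -0.66, adjusted p = 0.013 and -0.63, adjusted p = 0.0082. Dnajc11 did not pass without sgScr library 2 (-0.60) or sgPrkci library 2 (-0.55), nor with DESeq2 (-0.58) or quantile normalization (-0.49). Dnajc15 did not pass without sgScr library 3 (-0.50) or sgPrkci library 2 (-0.49), nor with DESeq2 (-0.54). Dnajc1, an ER membrane gene, had 134, 149 and 133 CPM in sgScr libraries 1 to 3 and 116, 117 and 110.1 CPM in sgPrkci libraries 1 to 3, a log2 fold change of -0.28, adjusted p = 0.025. Its call ended under 9 alternatives, among them TMM (-0.17), chromosome medians removed (-0.14) and the removal of sgScr library 2 (-0.23), sgPrkci library 1 (-0.29) or sgPrkci library 3 (-0.25). Without sgScr library 2, 5 J-domain genes fell in place of 8 (13.5%, against 14.4% of all genes), and likewise without sgPrkci library 2 (13.5%, against 17.8%).

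The remaining 17 tested class C genes did not pass, with log2 fold changes from -0.55 for Dnajc12 to 0.061 for Dnajc25. Those with the most tags were Dnajc5, the cysteine string protein of secretory vesicles, and Dnajc8, a spliceosome protein. Dnajc5 had 220.3, 234 and 241 CPM in sgScr libraries 1 to 3 and 227, 202 and 212 CPM in sgPrkci libraries 1 to 3, and Dnajc8 had 204, 202 and 214 CPM in sgScr libraries 1 to 3 and 232, 209.7 and 191 CPM in sgPrkci libraries 1 to 3. The groups overlapped for both (log2 fold changes -0.12, adjusted p = 0.32 and 0.028, adjusted p = 0.85), and both signs turned when chromosome medians were removed (0.023 and -0.024), that of Dnajc8 also without sgPrkci library 1 (-0.044).

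Grouped by the place where the proteins work, from lists written after the values were seen and so given without a test, the mitochondrial genes had the lowest median of the 3 lists. All 8 had log2 fold changes below 0, as had 7321 of all 12195 tested genes. Their median was -0.44, and 5 fell (62.5%, against 20.5% of all genes), namely Hspa9, Hspd1, Hspe1, Dnajc11 and Dnajc15. All 8 were below 0 under 10 of the 17 alternatives, and with TMM 7 were below 0 and 4 fell, against 14.9% of all genes. Their summed level was 1062, 1278 and 1263 CPM in sgScr libraries 1 to 3 and 783, 728 and 765 CPM in sgPrkci libraries 1 to 3. Of 7 ER genes, 1 rose (Dnajc10) and 1 fell (Dnajc1), 14.3% each, against 11.4 and 20.5% of all genes. The median of -0.080 turned to 0.020 with TMM and 0.021 with median-of-ratios scaling, where none fell. The ER genes had a summed level of 596, 652 and 627 CPM in sgScr libraries against 667, 703 and 657 CPM in sgPrkci libraries. Within this sum Dnajc10 alone had 124, 133 and 127 CPM against 226, 223 and 215 CPM, while 5 of the 7 ER genes had log2 fold changes below 0. The heat-inducible list held 10 genes, among them Hspa8, which is mainly constitutive and only weakly induced by heat. Of the 10, 2 rose (Hspa1b and Dnaja1, 20%, against 11.4% of all genes) and 5 fell (50%, against 20.5%). Those that fell were Hspa8, Hsp90aa1, Dnajb1, Hspd1 and Hspe1. The 3 that did not pass were Hspa1a, Hsph1 and Hspb1. These shares depend on which genes were listed. With TMM 3 fell, against 14.9% of all genes.

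Within each library, ratios between relatives need no scaling between libraries. A shift of a whole chromosome stays in them, as for Hspa4 on chromosome 11 (median -0.397). Hspa4l and Hspa4 were called in opposed directions, as were Hspa1b and Hspa8, whereas Dnaja2 and Dnajc3 (-0.036, adjusted p = 0.81) did not pass. The tags of Hspa4l per tag of Hspa4 were 0.304, 0.323 and 0.299 in sgScr libraries 1 to 3 and 0.634, 0.555 and 0.627 in sgPrkci libraries 1 to 3. Those of Hspa1b per tag of Hspa8 were 0.210, 0.255 and 0.294 against 0.676, 0.607 and 0.467. Both ratios were higher in every sgPrkci library, as were those of Dnaja1 per Dnaja2 (0.406 ± 0.0323 against 0.617 ± 0.0426, SD, n = 3 each) and of Dnajc10 per Dnajc3, an ER neighbour in function (0.812 ± 0.0156 against 1.44 ± 0.112). The inducible to constitutive HSP90 ratio, Hsp90aa1 per Hsp90ab1, was 0.142, 0.187 and 0.190 against 0.150, 0.138 and 0.135. The HSP60 to HSP10 ratio, Hspd1 per Hspe1, was 2.45, 2.67 and 2.17 against 1.94, 2.57 and 2.15. For these last 2 pairs the groups overlapped. The 6 pairs were chosen after the values were seen, compare groups and not the levels of the genes, and carry no test.

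**Figure D4:**
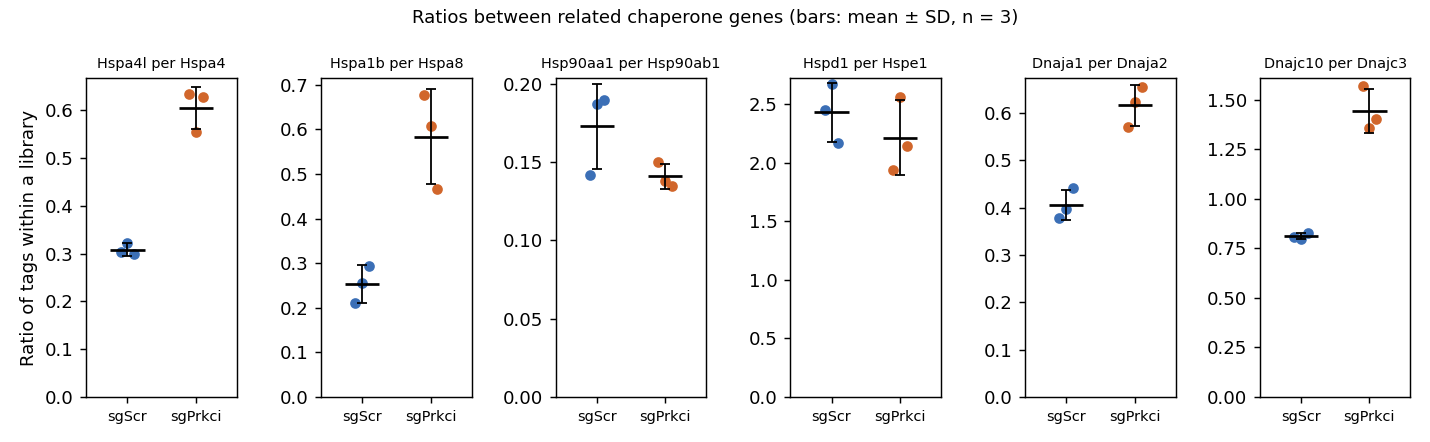
Ratio of the tags of a pair of related chaperone genes within each library (vertical axes, from 0, with their own scale) for the 3 sgScr (blue) and 3 sgPrkci (orange) libraries, with black bars for the mean ± SD. The groups are separate for Hspa4l per Hspa4, Hspa1b per Hspa8, Dnaja1 per Dnaja2 and Dnajc10 per Dnajc3, and overlap for the HSP90 pair and the chaperonin pair.

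Some chromosomes were shifted as a whole between the groups, which touches the genes on them. Over genes at a mean of 10 CPM or more, chromosome 11 had a median log2 fold change of -0.397, chromosome 15 of -0.365 and chromosome 8 of -0.28. Of the 9 tested chaperone genes on these 3 chromosomes 6 fell (Hspa4, Dnajc7, Cct4, Dnajc21, Cct5 and Dnajb1), 66.7%, against 40.6% of all tested genes there. On the other chromosomes 16 of 53 fell (30.2%), against 16.4% of all tested genes there, and 5 rose, with a median of -0.19 against -0.057. With each chromosome's median removed, 4 of the 62 rose, against 13.1% of all genes, and 15 fell, against 13.3%. Of the 62, 44 lay below the median of their own chromosome. After its removal their median was -0.13, against -0.023 over all tested genes.

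**Figure D5:**
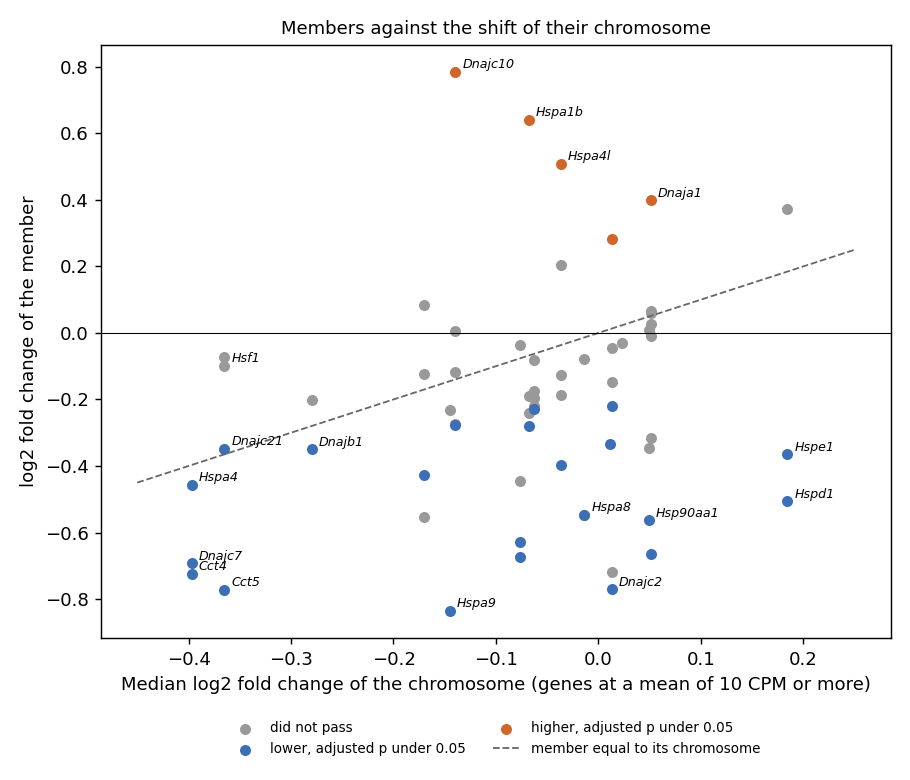
Log2 fold change of each of the 62 tested chaperone genes (vertical axis) against the median log2 fold change of its chromosome (horizontal axis), with the dashed line where they are equal. Hspd1 and Hspe1 lie far below the line on the right, Dnajc10, Hspa1b and Hspa4l far above it, and Hspa4, Dnajc21 and Dnajb1 close to it.

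The proteins that work with these chaperones carry other symbols and were taken as 7 lists. Of their 67 tested genes 6 rose (8.96%, against 11.4% of all tested genes) and 23 fell (34.3%, against 20.5%), with a median log2 fold change of -0.23. Without sgScr library 2, 7 rose (10.4%, against 8.97% of all genes) and 13 fell (19.4%, against 14.4%), and with TMM 15 fell (22.4%, against 14.9%), as many as with median-of-ratios scaling or edgeR. Of the 17 HSP90 co-chaperones 8 fell (47.1%, against 20.5% of all genes), none rose and 9 did not pass. With TMM 5 fell and 1 rose, against 14.9 and 15.7% of all genes. The gene that rose was Ppp5c, a phosphatase that binds HSP90 (0.66, against 0.56, adjusted p = 0.052 as deposited), which was named after its values were seen. Fkbp4, a cofactor of steroid receptor complexes, had 136, 147 and 145 CPM against 92.8, 92.5 and 96.2 CPM in libraries 1 to 3 of sgScr and sgPrkci. Stip1, the adaptor that passes clients from HSP70 to HSP90, had 124, 128 and 117 CPM against 90.1, 88.3 and 91.98 CPM. Both had separate groups, with log2 fold changes of -0.60, adjusted p = 1.4e-05 and -0.44, adjusted p = 0.00077. Ptges3, the co-chaperone p23, fell as well (-0.45, adjusted p = 0.00092), though not with plain moderation, and the other 5 were Ppid, Unc45a, Chordc1, Nudc and Fkbp5. Of these, Ppid kept its call under all 17 alternatives, and Chordc1, Nudc and Fkbp5 did not pass with TMM (-0.28, -0.42 and -0.37).

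The HSP70 exchange and binding factors were split, with 3 of 10 higher (30%, against 11.4% of all genes) and 4 lower (40%, against 20.5%). With TMM 4 rose and 2 fell, against 15.7 and 14.9% of all genes. Bag1, which releases clients from HSP70, had 153, 151 and 150.3 CPM against 252, 233 and 260.3 CPM, the widest separation of the list. The fit gave a log2 fold change of 0.71 ± 0.09 (SE, adjusted p = 2.0e-07). Grpel2, a mitochondrial exchange factor, rose (0.47, adjusted p = 0.0022), as did Bag3, a heat-inducible member of the Bag1 family (0.43, adjusted p = 0.0039). Bag4 fell (-0.59, adjusted p = 0.0005), although not with the median of chromosome 8 removed (-0.31), and so did St13, Hspbp1 and Bag5. St13 (-0.31, adjusted p = 0.0092) lies on chromosome 15, and with that median removed its sign turned (0.055). Its call ended also with TMM (-0.21), and that of Bag5, whose groups overlapped, ended under 10 alternatives.

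Of 9 prefoldin and phosducin-like genes, whose products hand clients to TRiC, 1 rose (11.1%) and 2 fell (22.2%), about the shares of all genes, 11.4 and 20.5%. Pfdn2 rose (0.47, adjusted p = 0.0013), on chromosome 1, and did not pass with chromosome medians removed (0.29). Pfdn1 (-0.28, adjusted p = 0.02) and Pfdn6 (-0.48, adjusted p = 0.029) fell, and neither passed with TMM. Pfdn1 did not pass without sgScr library 2 (-0.28) or sgPrkci library 1 (-0.28) or 2 (-0.23), nor Pfdn6 without sgScr library 1 (-0.45), 2 (-0.50) or 3 (-0.50) or sgPrkci library 3 (-0.31). Among 15 tubulin cofactors and cytoskeletal clients of TRiC 4 fell (26.7%) and 1 rose (6.67%), against 20.5 and 11.4% of all genes. The 10 others did not pass. They included the actin gene Actb, with the most tags of the list (-0.12, adjusted p = 0.21), and the tubulin genes Tuba1c (-0.12) and Tubb2b (0.33). Tbcd, a cofactor of tubulin assembly, had 18.4, 22.3 and 17.01 CPM against 6.79, 7.47 and 8.17 CPM and the lowest value of all lists (-1.25, adjusted p = 2.0e-05). The tubulin genes Tuba1b (-0.53, adjusted p = 2.8e-05) and Tubb5 (-0.31, adjusted p = 0.0017) fell, Tuba1b not with the median of chromosome 15 removed (-0.17) and Tubb5 not with edgeR, DESeq2 or plain moderation. Tubb4b fell too (-0.33, adjusted p = 0.011), though not with TMM (-0.22) or chromosome medians removed (-0.19), and Tbca, another tubulin cofactor, rose (0.32, adjusted p = 0.0044).

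Among 10 genes of mitochondrial protein quality control 4 fell (40%) and 1 rose (10%), against 20.5 and 11.4% of all genes. Lonp1, the main matrix protease, had 213, 213 and 217 CPM against 147, 167 and 158 CPM, without overlap, and a log2 fold change of -0.44, adjusted p = 0.00022. Clpp, a matrix protease subunit (-0.84, adjusted p = 0.0014), Timm44, which tethers the mitochondrial HSP70 to the import channel (-0.49, adjusted p = 0.002), and Clpb (-0.67, adjusted p = 0.0048) fell, and Afg3l2, an inner membrane protease, rose (0.36, adjusted p = 0.0082). Timm44 did not pass with the median of chromosome 8 removed (-0.21) or with DESeq2 (-0.40), nor Clpb with DESeq2 (-0.59). Of 2 tested heat shock factor and HSF-binding genes Hsbp1 did not pass (0.082) and Hsf2 fell (15.1, 17.1 and 14.2 CPM against 7.92, 11.2 and 8.88 CPM, -0.68, adjusted p = 0.012). It did not pass without sgScr library 2 (-0.61) or sgPrkci library 1 (-0.58), with chromosome medians removed (-0.51), with quantile normalization (-0.51) or with DESeq2 (-0.64). The 4 tested relatives under other symbols did not pass, namely Trap1 (-0.46), Sec63 (-0.19), Hscb (-0.12) and Gak (-0.036). Hsf4, Cryaa and Odf1 were not analysed here.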

How the data were processed

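RNA of 6 organoid samples (3 sgScr, 3 sgPrkci), 200 ng each, was turned into 3' tag libraries with the Lexogen QuantSeq FWD kit, with molecular identifiers as an option, and sequenced single-end on an Illumina NextSeq, per the labels' protocols. Reads were placed on GRCm38, per the submitters' processing notes. Which aligner, counter, strand setting and gene annotation were used, and whether molecular identifiers were counted, was not given in the sources used here. CPM, reads scaled to the library total, were deposited by the authors for 20756 genes. All 124536 values (100%) were whole multiples of 1 read within 1e-06 of a read, so reads could be recovered for edgeR and DESeq2.

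Groups came from the genotype labels. Replicate numbers follow accession order and pair nothing, and no batch is labelled. How the biological replicates of the series differed is not stated, so p-values measure the spread between these libraries. Within groups the chi-square per degree of freedom was 1.63 to 3.18, so none was counted as a repeat of another. Gene names, positions and transcript ends came from GENCODE M21.

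Genes at 1 CPM or more in at least 3 libraries, 12195 in all, entered limma 3.58.1 (R 4.3.3) on log2(CPM + 1) with trended, robust moderation. Tests were two-sided, p-values were adjusted by Benjamini-Hochberg over all of these genes, and calls needed an adjusted p under 0.05. Every adjusted p printed is limma's, and "rose" and "fell" refer to its calls. The script was tested on simulated data. The 17 alternatives were a pseudocount of 0.25 or 5 CPM, the filter dropped or set at 5 CPM, scaling by TMM, by median of ratios or by quantiles, plain moderation, edgeR 4.0.16, DESeq2 1.42.0, each chromosome's median removed (from genes at a mean of 10 CPM or more) and each library left out in turn, with the spread then pooled over the 5 libraries that remained. Tails were searched with blastn 2.17.0.

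The genes and lists were chosen with earlier results of these data known. Per-library values were given for Hsf1, all TRiC genes, the 3 genes with the highest mean CPM in each class, up to 4 called genes with the lowest p in each class and direction, and all called genes of classes with 5 or fewer. In the lists of partner genes up to 3 called genes with the lowest p were named. Dnajc1, Dnajc11, Dnajc15 and the other partner genes were named after their values were seen. RefSeq promoter entries were matched by symbol. One partner gene is not reported here and was left out of the lists.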

Additional observations from a re-analysis of the deposited data

How the results depend on the processing

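No paired analysis was possible because the groups share no replicate number in the labels. Of 27 called chaperone genes, 10 kept call and direction under all 17 alternatives (Cct5, Dnajc10, Dnajc2, Dnajc9, Hsp90aa1, Hspa1b, Hspa4l, Hspa8, Hspa9 and Hspd1). Of the 62 tested, 22 fell and 5 rose. Plain moderation left 13 lower (21.0%, against 15.2% of all genes) and 3 higher (4.84%, against 8.15%), and DESeq2 11 lower (17.7%, against 9.17%). The 7 TRiC decreases became 4 with TMM, 4 with median-of-ratios scaling, 4 with edgeR, 3 with DESeq2 and 2 with plain moderation. These were 50, 50, 50, 37.5 and 25% of the 8, against 14.9, 14.8, 14.7, 9.17 and 15.2% of all genes. With a library left out they ranged from 4 to 7 (50 to 87.5%, against 14.4 to 19.9% of all genes). The 8 J-domain decreases became 5 with plain moderation (13.5%, against 15.2% of all genes), 3 with DESeq2 (8.11%, against 9.17%) and 4 with chromosome medians removed (10.8%, against 13.3%). With a library left out they ranged from 5 to 9 (13.5 to 24.3%, against 14.4 to 19.9% of all genes). The 3 J-domain increases became 1 with plain moderation (2.70%, against 8.15%). The 23 decreases among partner genes became 14 with plain moderation (20.9%, against 15.2% of all genes), 9 with DESeq2 (13.4%, against 9.17%) and 14 with chromosome medians removed (20.9%, against 13.3%). They became 15 with TMM, median-of-ratios scaling and edgeR (22.4%, against 14.9, 14.8 and 14.7%). With a library left out they ranged from 13 to 24 (19.4 to 35.8%, against 14.4 to 19.9%). The median log2 fold change of the chaperone genes, -0.22, was -0.12 with TMM, median-of-ratios scaling and edgeR, -0.13 with DESeq2, quantile normalization and chromosome medians removed. The causes were not tested. Of the genes whose sign turned, Dnajc21 and St13 had passed. Removal of chromosome medians gave 0.078 for Dnaja2, 0.017 for Dnajc21, 0.055 for St13, 0.023 for Dnajc5, -0.024 for Dnajc8 and 0.27 for Hsf1, and quantile normalization 0.084 for Hsf1. Hspb11 turned with TMM (0.072), median-of-ratios scaling (0.072), quantile normalization (0.13), edgeR (0.041) and DESeq2 (0.031). With a library left out it ranged from -0.23 to 0.30 and Dnajc8 from -0.044 to 0.097. Over all genes tested, the number called higher went from 1387 to 1918 with TMM and the number called lower from 2495 to 1816. At 2141125 to 3048170 reads per library, genes of a few CPM such as Hspb1 and Hspb11 rest on few reads, and 5 chaperone genes were too low to test.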
